A study of Danio rerio with 12 samples.

Results

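The perforin genes prf1.1, prf1.2, prf1.3, prf1.5, prf1.6 and prf1.9 and the granzyme gene gzma of the zebrafish were followed across 4 genotypes in poly(A) RNA of whole kidney marrow, the blood-forming tissue of the fish. These 7 genes were taken by their symbols from a deposited table of 32105 Ensembl genes, and each symbol matched a single identifier with counts. All 7 passed the filter on low counts, as did 18370 genes in all. Each of the 12 libraries came from the kidney of an individual animal. There were 3 animals of each genotype: wild type fish, fish mutant in prkdc, fish mutant in il2rga, and double mutants of both genes. The study's design text names the alleles as prkdc D3612fs and il2rga Y91fs, both frameshifts, and the library labels give the mutated genes without the allele. The animals are whole-body mutants, so differences need not be limited to blood cells. The sources used here do not give age, sex, strain or zygosity. The comparison was made to follow immune cell lineages in immunodeficient fish.

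Perforin is the pore-forming protein of killer lymphocytes. It is stored in granules and inserted into the membrane of a target cell, which lets granzymes, a family of serine proteases, enter that cell and start its death. Granzyme A is a trypsin-like member that is made by cytotoxic T cells and natural killer cells in mammals. Bony fishes carry several perforin paralogues where mammals have a lone gene. From il2rga comes the common gamma chain, a subunit of the receptors of interleukins such as IL-2, IL-7 and IL-15, on which T cells and natural killer cells depend in mammals. The product of prkdc is a kinase of DNA repair, needed when the gene segments of T cell and B cell receptors are joined.

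Libraries held 4756244 to 10311377 counts. The targeted gene il2rga had 38.0 to 61.4 CPM, counts scaled to library size, in wild type and 34.1 to 42.2 in prkdc mutants, against 1.71 to 6.17 in il2rga mutants and 2.05 to 4.0 in double mutants. The prkdc transcript had 50.1 to 62.8 CPM in wild type, 16.0 to 23.3 in prkdc mutants, 22.1 to 34.2 in il2rga mutants and 17.8 to 19.2 in double mutants, so it was low in all mutant groups. Libraries with the il2rga mutation stood apart in other respects. A list of 16 liver genes summed to 236 to 414 CPM in wild type and 167 to 828 in prkdc mutants, against 550.4 to 5986 in il2rga mutants and 1616 to 14358 in double mutants, and libraries 1 and 2 of both groups with the il2rga mutation were the 4 highest by mean log2 CPM. Of 23 very long transcripts with unrelated functions, 14 were lower in il2rga mutants than in wild type and 18 in double mutants (edgeR's quasi-likelihood test, Benjamini-Hochberg adjusted over all genes). Among all genes tested 3.59% and 7.51% were lower. Both neutrophil and kidney tubule genes were present in each library: 8 neutrophil genes summed to at least 4187 CPM and 7 tubule genes to at least 7833 CPM. Against wild type, 2 tubule genes were higher and 0 lower in il2rga mutants by the same test, where 2.22% of all genes were higher. In double mutants 2 were higher and 1 lower, beside 6.8% and 7.51% of all genes.

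All members lay low in the range of expression. The largest count of a member in any library was 71, for gzma, and the mean over the 12 libraries ran from 0.729 CPM for prf1.2 to 3.00 CPM for prf1.5. These means put prf1.2 at percentile 0.664 of the genes tested and prf1.5 at percentile 17.5. The filter on low counts was met by gzma through wild type libraries, and by prf1.1 and prf1.9 through animals without the il2rga mutation. A gene low in every group would not have been tested. Over the whole table prf1.1 had 88 counts, prf1.2 had 69, prf1.3 had 139, prf1.5 had 302, prf1.6 had 139, prf1.9 had 239 and gzma had 170. Levels were compared within a gene across animals, since transcript lengths were not used. Near-identical stretches of paralogues can share reads, and the sources used here do not say how reads that match several genes were counted, so the division of counts between paralogues is uncertain.

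The RefSeq gene order of the GRCz12tu assembly was used for neighbourhood alone, because the counts were made on GRCz10. There, prf1.9 (ENSDARG00000060662) and prf1.1 (ENSDARG00000030394) are adjacent. The genes prf1.6 (ENSDARG00000024522) and prf1.5 (ENSDARG00000037598) have a single unnamed gene between them, and their outer neighbours are mpeg1.3 and mpeg1.1, which encode pore-forming proteins of macrophages. The gene prf1.2 (ENSDARG00000021444) lies beside prf1.7 and prf1.8, and prf1.3 (ENSDARG00000001572) has no other perforin gene within its 2 nearest neighbours on either side. A single gene, rxfp3, separates gzma (ENSDARG00000090380) from gzmk, another granzyme gene.

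The adjacent pair prf1.9 and prf1.1 was at or near 0 counts in every animal with the il2rga mutation and was expressed in wild type and prkdc mutants. The perforin prf1.9 had 35, 18 and 45 counts in wild type animals 1 to 3 and 54, 42 and 39 counts in prkdc mutants. In il2rga mutants it had 2, 0 and 1 counts, and in double mutants 1, 2 and 0 counts. The 6 animals with the il2rga mutation all lay below the other 6, with no overlap. As levels these were 3.49 ± 1.33 CPM in wild type (SD, n = 3), 5.15 ± 0.897 in prkdc mutants, 0.211 ± 0.210 in il2rga mutants and 0.105 ± 0.10 in double mutants. In order, prkdc mutants were highest and wild type next, with overlapping ranges, and il2rga and double mutants overlapped at the bottom. In whole tissue, fewer cells of a type and less RNA per cell cannot be told apart.

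The prf1.9 level was 22.2 times higher in wild type than in il2rga mutants by summed counts scaled to library size, with an exact 95% counting interval of 7.38 to 109.6, and prf1.9 passed as lower in the mutants (edgeR's quasi-likelihood test, Benjamini-Hochberg adjusted p = 0.0173). Against double mutants the ratio was 29.9, with an interval of 9.94 to 148 (edgeR, Benjamini-Hochberg adjusted p = 0.00721). Counting intervals and limits from a count of 0 cover counting error only. Against prkdc mutants, prf1.9 also fell in double mutants (ratio 43.5, interval 14.6 to 213, edgeR adjusted p = 0.00679) and in il2rga mutants (ratio 32.3, interval 10.8 to 158, edgeR adjusted p = 0.0116). The prkdc mutants did not pass against wild type, with a log2 fold change of 0.56 ± 0.59 (SE, edgeR adjusted p = 1). Leaving out wild type animal 3 or il2rga mutant 2 ended the call of prf1.9 in il2rga mutants against wild type (edgeR adjusted p = 0.0678 and 0.0501).

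The neighbouring prf1.1 had lower counts, and its mean was highest in wild type and not in prkdc mutants. It had 13, 12 and 33 counts in wild type, 4, 15 and 10 in prkdc mutants, 0, 1 and 0 in il2rga mutants and 0, 0 and 0 in double mutants. Every animal with the il2rga mutation lay below every animal without it, while wild type and prkdc mutants overlapped. Levels were 2.10 ± 1.26 CPM in wild type (SD, n = 3), 1.1 ± 0.596 in prkdc mutants and 0.0356 ± 0.0617 in il2rga mutants, and 0 counts in double mutants allow a level of up to 0.118 CPM over the group, the level of 3 counts.

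The prf1.1 level in wild type was 39.5 times that of il2rga mutants, with a counting interval of 6.81 to 1585 that reflects the lone count, and prf1.1 passed as lower in il2rga mutants (edgeR, Benjamini-Hochberg adjusted p = 0.0274). In double mutants prf1.1 was at least 17.7-fold lower than in wild type (edgeR adjusted p = 0.00952) and at least 9.34-fold lower than in prkdc mutants (edgeR adjusted p = 0.0184), both computed against the limit of 3 counts over the group. Between il2rga and prkdc mutants the ratio was 20.8, with an interval of 3.45 to 849.6, and prf1.1 narrowly missed the threshold of 0.05 (edgeR adjusted p = 0.0512), while DESeq2's Wald test called it (adjusted p = 0.0382). The call of prf1.1 in il2rga mutants against wild type ended when any of the 3 wild type or the 3 il2rga mutant libraries was left out, with an edgeR adjusted p of 0.0510 to 0.0975. The call in double against prkdc mutants ended without prkdc mutant 2, prkdc mutant 3 or double mutant 1 (edgeR adjusted p = 0.0504, 0.0580 and 0.0638). In prkdc mutants against wild type the log2 fold change of prf1.1 was -0.92 ± 0.69 (SE, edgeR adjusted p = 1).

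**Figure D1:**
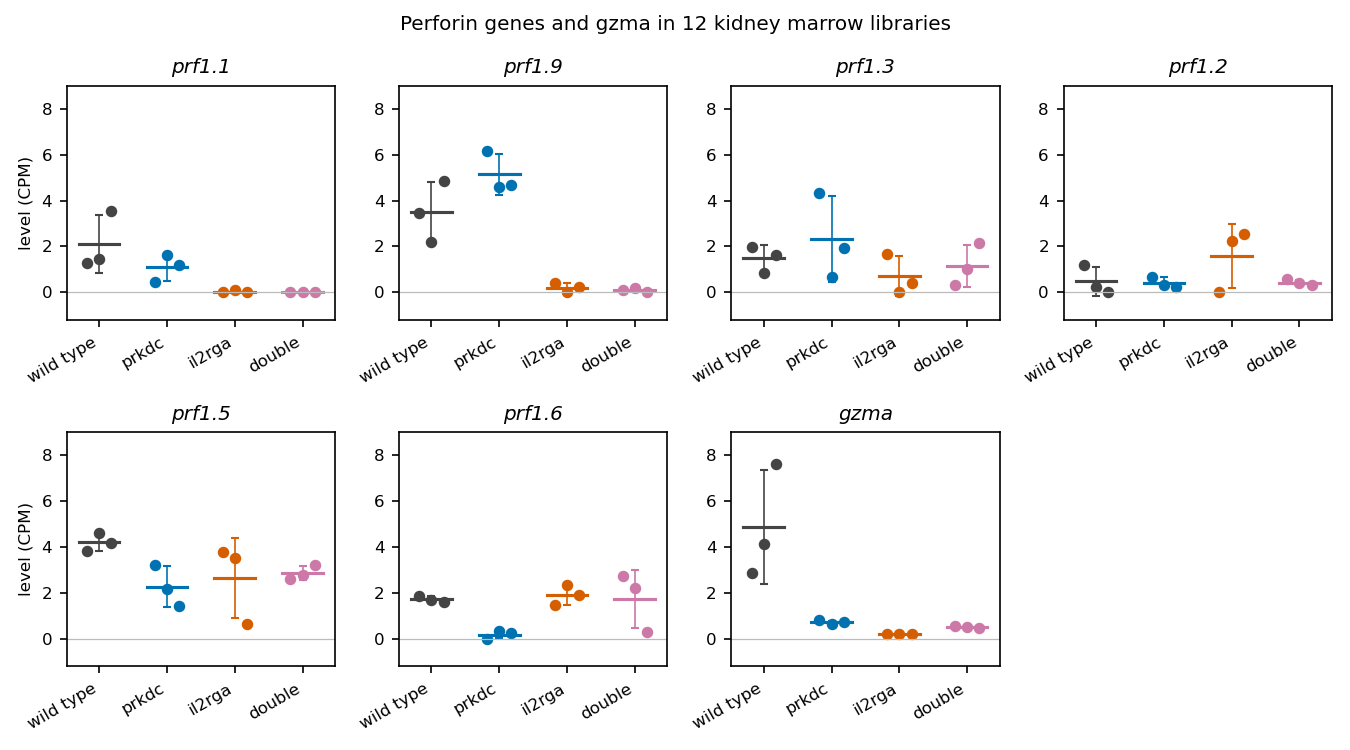
Level of each gene in CPM (vertical axis) in the 12 libraries by genotype. Points are animals, the horizontal line is the mean and the bar the SD of 3 animals. All il2rga and double mutants lie at or near 0 for prf1.1, prf1.9 and gzma, the prkdc mutants lie near 0 for prf1.6 and below 1 CPM for gzma, and prf1.5 has libraries above 2.5 CPM in every group.

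Granzyme A transcripts were low in all 3 mutant groups. The gene gzma had 29, 34 and 71 counts in wild type animals 1 to 3. In prkdc mutants it had 7, 6 and 6 counts, in il2rga mutants 1, 2 and 1, and in double mutants 5, 5 and 3. Every mutant animal lay below every wild type animal, and the mutant groups did not overlap each other. Levels were 4.88 ± 2.48 CPM in wild type (SD, n = 3), 0.725 ± 0.0735 in prkdc mutants, 0.509 ± 0.0555 in double mutants and 0.212 ± 0.00182 in il2rga mutants. The spread within each mutant group is smaller than counting error: in prkdc mutant 1, for example, 7 counts have an exact 95% interval of 0.322 to 1.65 CPM. By summed counts the level in prkdc mutants was 1.41 times that of double mutants, with a counting interval of 0.661 to 3.11, and 3.41 times that of il2rga mutants, with an interval of 1.13 to 13.8.

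Against wild type, gzma fell by 4.43 ± 0.55 on the log2 scale in il2rga mutants (SE, edgeR adjusted p = 0.00473) and by 3.22 ± 0.48 in double mutants (SE, edgeR adjusted p = 0.00517). Both calls held with each library left out in turn, with an edgeR adjusted p of at most 0.0311 and 0.0254. In prkdc mutants the log2 fold change was -2.72 ± 0.46, with an unadjusted p of 8.71e-05 and an edgeR adjusted p of 0.205, so gzma did not pass over all genes. DESeq2's Wald test called it (adjusted p = 0.00530) and limma voom did not (adjusted p = 0.0542). Between mutants gzma did not pass: the log2 fold change was -1.70 ± 0.57 in il2rga against prkdc mutants (edgeR adjusted p = 0.0933), -0.49 ± 0.49 in double against prkdc mutants (edgeR adjusted p = 0.510) and 1.21 ± 0.59 in double against il2rga mutants (edgeR adjusted p = 0.567). The neighbouring granzyme gene gzmk had 50 counts over the wild type animals, 4 over prkdc mutants, 1 over il2rga mutants and 2 over double mutants, and it did not pass the filter and was not tested.

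The perforin prf1.6 was low in prkdc mutants alone among the group means. It had 19, 14 and 15 counts in wild type animals and 0, 3 and 2 in prkdc mutants. In il2rga mutants it had 7, 22 and 9 counts, and in double mutants 24, 22 and 2. Wild type and il2rga mutant animals all lay above the prkdc mutants, whereas double mutant 3, at 0.305 CPM, fell within the range of prkdc mutants. Levels were 1.73 ± 0.129 CPM in wild type (SD, n = 3), 0.189 ± 0.169 in prkdc mutants, 1.91 ± 0.439 in il2rga mutants and 1.74 ± 1.27 in double mutants.

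In prkdc mutants against wild type the log2 fold change of prf1.6 was -3.09 ± 0.86, with an unadjusted p of 0.00404 and an edgeR adjusted p of 0.497. Against prkdc mutants prf1.6 rose by 3.25 ± 0.87 in il2rga mutants (edgeR adjusted p = 0.0488) and by 3.12 ± 0.86 in double mutants (edgeR adjusted p = 0.0365). Both calls lie close to the threshold and share the same prkdc mutant libraries. Leaving out a library ended the first call for every library but double mutant 3, with an edgeR adjusted p of 0.0511 to 0.130 and a log2 fold change of 2.70 without prkdc mutant 1 to 3.87 without prkdc mutant 2. The second call ended without wild type 2 or 3, any prkdc mutant, or double mutant 1 or 2, with an edgeR adjusted p of 0.0524 to 0.129 and a log2 fold change of 2.58 without prkdc mutant 1 to 3.75 without prkdc mutant 2. With the replicate number as a block, which the labels do not give as a pairing, neither passed (edgeR adjusted p = 0.0703 and 0.0636). Without the 4 libraries highest in liver genes, double mutant 3 alone stood for its group, and the double mutant difference was 0.64. The remaining comparisons of prf1.6 gave log2 fold changes of 0.16 ± 0.71 for il2rga mutants against wild type (edgeR adjusted p = 0.916), 0.03 ± 0.70 for double mutants against wild type (edgeR adjusted p = 0.981) and -0.12 ± 0.72 between double and il2rga mutants (edgeR adjusted p = 0.964).

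The perforin prf1.5, which shares its neighbourhood with prf1.6, had counts in every library. It had 39, 38 and 39 counts in wild type, 28, 20 and 12 in prkdc mutants, 18, 33 and 3 in il2rga mutants and 23, 28 and 21 in double mutants. All mutant animals lay below the lowest wild type animal in CPM, although il2rga mutant 1, at 3.78 CPM, was close to the lowest wild type animal at 3.83 CPM. Levels were 4.22 ± 0.397 CPM in wild type (SD, n = 3), 2.28 ± 0.887 in prkdc mutants, 2.65 ± 1.75 in il2rga mutants and 2.87 ± 0.304 in double mutants, with the mutant groups overlapping each other. None of these differences passed: the log2 fold changes against wild type were -0.88 ± 0.52 in prkdc mutants (edgeR adjusted p = 0.984), -0.65 ± 0.53 in il2rga mutants (edgeR adjusted p = 0.486) and -0.55 ± 0.52 in double mutants (edgeR adjusted p = 0.489).

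The perforins prf1.3 and prf1.2 varied more between animals of a group than between groups. Of prf1.3 there were 20, 7 and 15 counts in wild type, 38, 6 and 16 in prkdc mutants, 8, 0 and 2 in il2rga mutants and 3, 10 and 14 in double mutants. All groups overlapped, at 1.48 ± 0.569 CPM (SD, n = 3), 2.31 ± 1.88, 0.702 ± 0.874 and 1.16 ± 0.909. The log2 fold changes of prf1.3 against wild type were 0.63 ± 0.97 in prkdc mutants (edgeR adjusted p = 1), -1.2 ± 1.1 in il2rga mutants (edgeR adjusted p = 0.539) and -0.38 ± 1.0 in double mutants (edgeR adjusted p = 0.820). With standard errors near 1, changes of a few fold would not be detectable here.

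Of prf1.2 there were 12, 2 and 0 counts in wild type, 6, 3 and 2 in prkdc mutants, 0, 21 and 12 in il2rga mutants and 5, 4 and 2 in double mutants. Its highest levels were 2.24 and 2.55 CPM in il2rga mutants 2 and 3, while il2rga mutant 1 had no count, so that group overlapped all others. Group levels were 0.475 ± 0.623 CPM in wild type (SD, n = 3), 0.418 ± 0.237 in prkdc mutants, 1.6 ± 1.39 in il2rga mutants and 0.425 ± 0.133 in double mutants. The log2 fold changes against wild type were -0.21 ± 1.19 in prkdc mutants (edgeR adjusted p = 1), 1.71 ± 1.12 in il2rga mutants (edgeR adjusted p = 0.382) and -0.17 ± 1.19 in double mutants (edgeR adjusted p = 0.937). Between double and il2rga mutants it was -1.89 ± 1.15 (edgeR adjusted p = 0.589).

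Read by comparison, in il2rga mutants against wild type 3 of 7 members fell, prf1.1, prf1.9 and gzma, where 3.59% of all genes tested were called lower and 2.22% higher. In double mutants against wild type the same 3 members fell, beside 7.51% of all genes lower and 6.8% higher. Since these comparisons share the wild type libraries, they are given side by side and not as independent results. Groups did not overlap and the mutants were lower for 4 of 7 members in each, the 3 above and prf1.5, against 16% of all genes for il2rga mutants and 17.8% for double mutants. In prkdc mutants against wild type edgeR called 0 members and 0% of genes in either direction. There, 2 of 7 members had an unadjusted p under 0.05, prf1.6 and gzma, as did 1052 genes in all. DESeq2 called 1 member and 139 genes, and limma 0 members and 26 genes. Groups did not overlap, with prkdc mutants lower, for prf1.5, prf1.6 and gzma, which is 3 of 7 against 7.61% of all genes.

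In double against prkdc mutants 2 members fell, prf1.1 and prf1.9, and 1 rose, prf1.6, beside 6.86% of all genes lower and 7.93% higher. The groups did not overlap for prf1.1, prf1.9 and gzma, lower in double mutants, against 17.2% of all genes. In il2rga against prkdc mutants prf1.9 fell and prf1.6 rose, beside 3.67% of genes lower and 3.1% higher. There prf1.1, prf1.9 and gzma were lower without overlap, against 15.3% of all genes, and prf1.6 was higher without overlap, against 15.4%. Between double and il2rga mutants edgeR called 0 members and 0% of genes in either direction, with 0 members and 1767 genes at an unadjusted p under 0.05, and 0 members were called by DESeq2, with 72 genes, or by limma, with 0 genes. In that comparison gzma was higher in double mutants without overlap, against 5.6% of all genes. For these 2 groups, the replicate numbers met the criterion for pairing, and with the number as a block 5 genes were called and 0 members.

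The interaction asked whether the prkdc mutation made the same difference with and without the il2rga mutation. The 2 differences of gzma, 1.21 with and -2.72 without the il2rga mutation, were 3.93 ± 0.74 log2 units apart (unadjusted p = 0.000235, edgeR adjusted p = 0.788). Those of prf1.6 were 2.97 ± 1.11 apart (unadjusted p = 0.0216, edgeR adjusted p = 0.788). By edgeR 0 members and 0% of genes passed in either direction, with 2 members and 1123 genes at an unadjusted p under 0.05, and 0 members were called by DESeq2, with 49 genes, or by limma, with 0 genes. On the gzma side the il2rga mutant term rests on 4 counts over 3 animals.

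**Figure D2:**
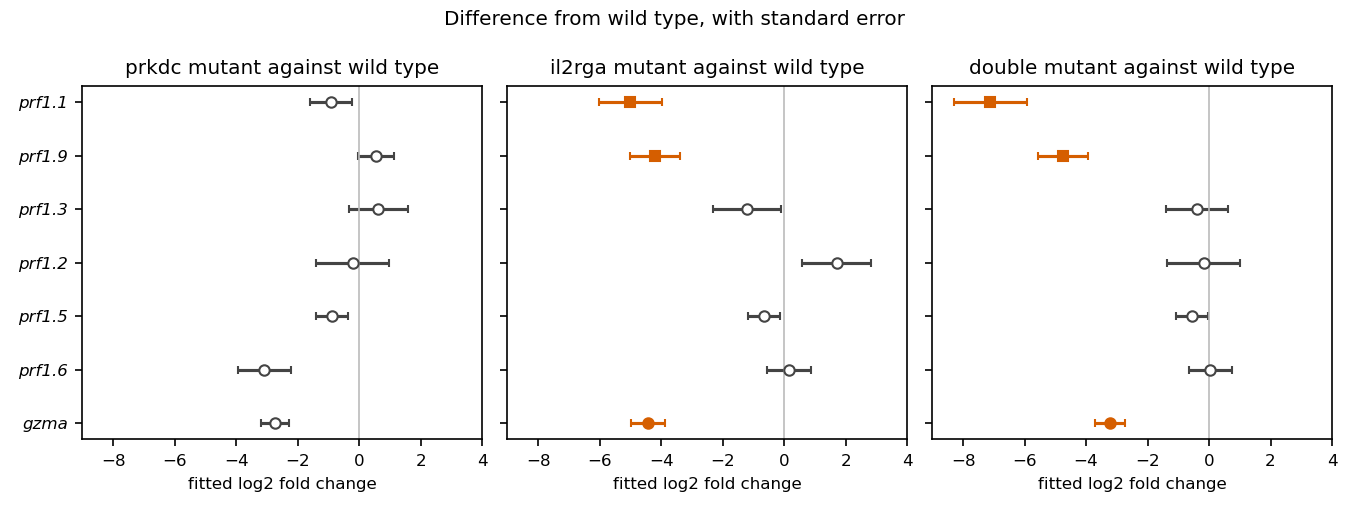
Fitted log2 fold change against wild type with its standard error (horizontal axis) for each gene (vertical axis) in the 3 mutant groups. Filled orange symbols have an adjusted p under 0.05 and open symbols do not. Squares mark values where the mutant group holds 3 counts or fewer, whose fitted size depends on edgeR's default prior count. In il2rga and double mutants prf1.1, prf1.9 and gzma are filled, and in prkdc mutants no gene is, with prf1.6 at -3.09 and gzma at -2.72.

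All calls of members were made on libraries that also differ in liver genes. With the mean of the liver genes as a covariate, none of the members passed in any comparison, and the log2 fold changes of gzma were -4.29 in il2rga mutants (edgeR adjusted p = 0.0681) and -3.04 in double mutants (edgeR adjusted p = 0.357). Few genes of any kind passed with this covariate, 18 in il2rga mutants against wild type in place of 1066 and 0 in double mutants in place of 2628, so with it no gene of any list passes in double mutants. The log2 fold changes of prf1.9 were -3.97 (edgeR adjusted p = 0.148) and -4.37 (edgeR adjusted p = 0.220). Without the 4 libraries highest in liver genes, 1 animal was left in each group with the il2rga mutation, which the fit assumed to vary like the others, and 0 members passed in any comparison, with 39 genes of the whole table passing in il2rga and 0 in double mutants against wild type. In those remaining animals, il2rga mutant 3 had 0 counts of prf1.1, 1 of prf1.9 and 1 of gzma, and double mutant 3 had 0, 0 and 3. The log2 fold changes of gzma were then -4.42 in il2rga and -3.37 in double mutants, where all libraries gave -4.43 and -3.22. Leaving out these libraries did not remove the liver difference of double mutants. The mean of the liver genes was 5.50 log2 CPM in double mutant 3 and 2.30 in il2rga mutant 3, against 1.82 to 2.80 in wild type. The part of the low very long transcripts in these differences was not tested.

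To compare the members with each other, the log2 ratio of 2 members was taken within each library. A prior count of 2, scaled to library size, was added to each gene, so that library size drops out. A shift common to both genes drops out only at counts well above this prior. At low counts the ratio is drawn towards 0. For each of 21 pairs, the 6 animals with the il2rga mutation were set against the 6 without it, by a 2-sided exact permutation test over the 400 arrangements that keep the prkdc genotype fixed, where the smallest possible p is 0.005. The ratio differed for 10 of 21 pairs (exact permutation test, Benjamini-Hochberg adjusted p = 0.015 to 0.0315). In all 10, a member of the set prf1.1, prf1.9 and gzma was paired with a member of the set prf1.2, prf1.3, prf1.5 and prf1.6, and the former lost ground in il2rga mutants. The 4 perforins prf1.2, prf1.3, prf1.5 and prf1.6 thus parted from prf1.9 in every pairing. Of them, 3 parted from prf1.1 and from gzma, with prf1.3 as the exception. The set prf1.1, prf1.9 and gzma holds the members that edgeR had called lower in these same libraries. The pairs also share genes, so the ratios partly restate those calls and are not separate support for them. The share among pairs of other genes was not computed.

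The largest of these shifts was between prf1.6 and prf1.9. Their log2 ratio, prf1.6 over prf1.9, was -0.86 ± 0.57 in wild type (SD, n = 3) and -3.71 ± 0.88 in prkdc mutants, against 2.34 ± 1.02 in il2rga mutants and 2.23 ± 0.96 in double mutants. Animals with and without the il2rga mutation did not overlap, and the mean difference was 4.57 (exact permutation test, Benjamini-Hochberg adjusted p = 0.015). For prf1.5 over prf1.9 the difference was 3.26 (exact permutation test, adjusted p = 0.0233), with some overlap, and for prf1.6 over gzma it was 2.91 without overlap (exact permutation test, adjusted p = 0.015). Within the first set the ratios did not pass: prf1.1 over prf1.9 differed by 0.88 (exact permutation test, adjusted p = 0.154), prf1.1 over gzma by -0.78 (exact permutation test, adjusted p = 0.21) and prf1.9 over gzma by -1.66 (exact permutation test, adjusted p = 0.121). In animals with the il2rga mutation those ratios rest on 0 to 5 counts a gene, too few to show whether the members of that set move together. With the 4 libraries highest in liver genes left out, 0 of 21 pairs passed, where the smallest p that exact permutation can give is 0.0625, and all 10 kept their sign.

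The same tests for the prkdc mutation, over all 12 animals, found no pair whose ratio differed (0 of 21, smallest unadjusted exact permutation p = 0.06). Among animals with an intact il2rga gene, however, ratios of prkdc mutants and wild type did not overlap for 12 of 21 pairs. Apart from prf1.1 with prf1.9 and prf1.5 with prf1.9, each of these pairs held prf1.6 or gzma, both low in prkdc mutants. The pairs share genes and are not independent, and the share among pairs of other genes was not computed. With 3 animals a group an exact permutation test cannot go below p = 0.1, so the ratios are given as values. The log2 ratio of prf1.9 over gzma was 0.25, -0.85 and -0.63 in wild type animals 1 to 3 and 2.62, 2.42 and 2.35 in prkdc mutants, a mean difference of 2.87. For prf1.6 over prf1.9 the difference was -2.85, and for prf1.6 over gzma it was 0.02, with prf1.6 and gzma both low in prkdc mutants. These pairs were singled out after their values were seen. In prkdc mutants, then, prf1.9 and gzma parted in counts, at 135 against 98 in wild type for prf1.9 and 19 against 134 for gzma.

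**Figure D3:**
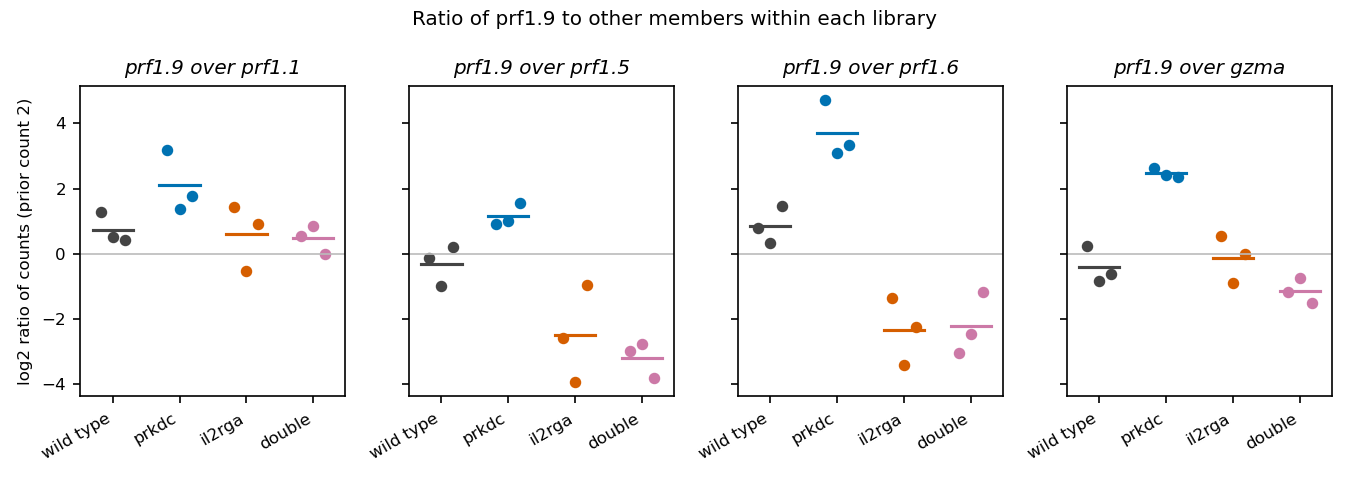
Log2 ratio of the counts of prf1.9 to those of prf1.1, prf1.5, prf1.6 and gzma (vertical axis, prior count of 2) within each library, by genotype. Points are animals and lines are means. Against prf1.6 the animals with the il2rga mutation lie between -3.41 and -1.17 and the others between 0.32 and 4.71, and against gzma the prkdc mutants lie between 2.35 and 2.62, above all other animals.

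The make-up of perforin counts differed accordingly. The pair prf1.1 and prf1.9 gave 34.8%, 33.0% and 53.1% of all perforin counts in wild type animals 1 to 3 and 44.6%, 64.0% and 60.5% in prkdc mutants. In il2rga mutants the pair gave 5.71%, 1.3% and 3.70%, and in double mutants 1.79%, 3.03% and 0%. The highest share with the il2rga mutation, 2 of 35 counts in il2rga mutant 1, has an exact Clopper-Pearson 95% interval of 0.700% to 19.2%, below the 23.5% that bounds the lowest wild type share. The pair prf1.5 and prf1.6 gave 44.4% to 83.9% of perforin counts in animals with the il2rga mutation. Its share was 42.0%, 57.1% and 36.7% in wild type animals 1 to 3 and 21.5%, 25.8% and 17.3% in prkdc mutants. A share can rise because other members fall. Mean prf1.5 was 2.65 CPM in il2rga and 2.87 in double mutants against 4.22 in wild type. Mean prf1.6 was 1.91 and 1.74 CPM against 1.73. Summed over the 6 perforins the level was 13.5 ± 2.37 CPM in wild type (SD, n = 3), 11.4 ± 2.98 in prkdc mutants, 7.11 ± 1.26 in il2rga mutants and 6.31 ± 0.326 in double mutants, so the sum alone hides that some paralogues were near 0 and others were not. These sums and shares are of counts and are not corrected for transcript length.

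**Figure D4:**
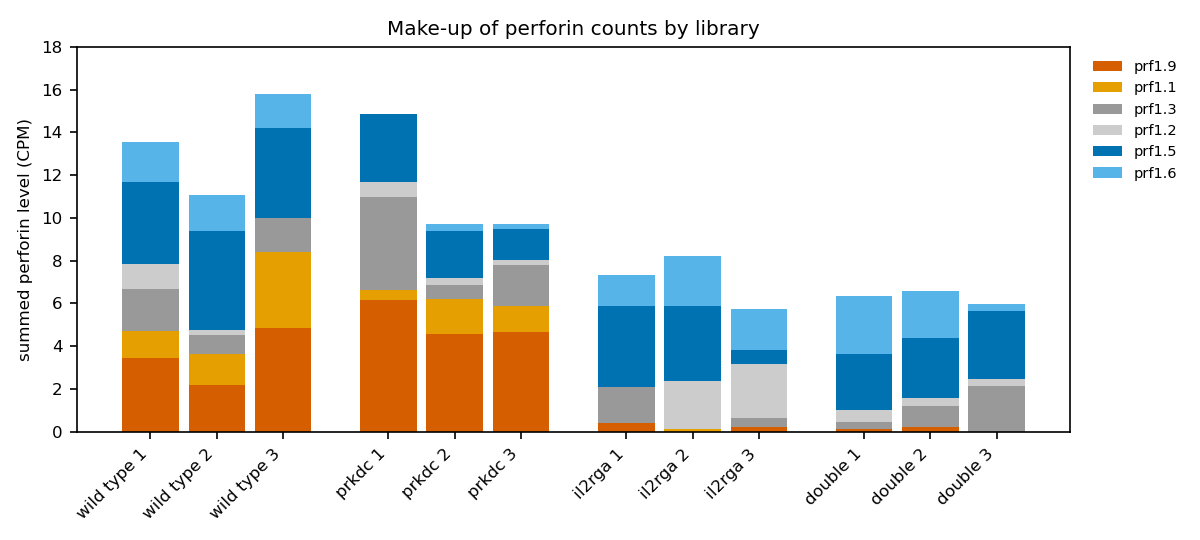
Level of the 6 perforins in CPM (vertical axis), stacked within each of the 12 libraries. The orange parts, prf1.9 and prf1.1, make up 33.0% to 64.0% of perforin counts in wild type and prkdc mutants. In animals with the il2rga mutation they make up at most 5.71%. The blue parts, prf1.5 and prf1.6, make up 44.4% to 83.9% there and 36.7% to 57.1% in wild type.

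Other genes of the cytotoxic pathway were read from a list of 34, of which 26 matched an identifier and 18 were tested. Against wild type, 3.59% of all genes tested were lower in il2rga mutants and 7.51% in double mutants. In il2rga mutants against wild type 8 of 18 fell and 0 rose, with a median log2 fold change of -0.76 beside 0.06 over all genes. They include the granule proteins nkl.2, nkl.3 and nkl.4, which are NK-lysins that disrupt membranes, the transcription factor tbx21, and il2rb, a receptor chain that works together with the common gamma chain. The gene tbx21 had 232 counts over wild type animals and 16 over il2rga mutants (log2 fold change -3.16 ± 0.54, edgeR adjusted p = 0.0115), and il2rb had 1021 and 118 counts. The death ligand gene faslg had 31 counts over wild type and 0 over il2rga mutants, and nkl.2 had 130 and 2. In double mutants 9 of 18 fell, with a median of -1.32 beside 0.05 over all genes, among them rab27b, which belongs to the Rab27 family that guides granules to the membrane (log2 fold change -2.29 ± 0.51, edgeR adjusted p = 0.0183). Of the NK-lysins, nkl.2 fell there too (edgeR adjusted p = 0.00535). The genes nkl.3 and nkl.4 did not pass (log2 fold changes -2.04 ± 0.71 and -2.26 ± 0.81, edgeR adjusted p = 0.0761 and 0.0812).

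In prkdc mutants none of the 18 passed, with a median log2 fold change of -0.10 beside 0.00 over all genes. By edgeR 0 had an unadjusted p under 0.05, and DESeq2 and limma called 0. The NK-lysin nkl.3 had 414 counts over prkdc mutants and 200 over wild type (log2 fold change 1.11 ± 0.67, edgeR adjusted p = 0.984), and nkl.4 had 304 and 245. Other genes of the list had fewer counts over prkdc mutants than over wild type without passing: nkl.2 had 103 and 130, faslg 24 and 31, il2rb 556 and 1021, and tbx21 123 and 232, the last with no overlap between the groups. Against prkdc mutants, 10 of 18 fell in double mutants and 6 of 18 in il2rga mutants, with 0 rising in either. Among all genes tested 6.86% and 3.67% were lower in these comparisons. Genes of granule transport and release divided. Against wild type, rab27a and lyst, which act in granule transport and biogenesis, fell in il2rga mutants (log2 fold changes -0.77 ± 0.18 and -1.04 ± 0.26, edgeR adjusted p = 0.0353 and 0.0403) and in double mutants (-0.94 ± 0.18 and -1.35 ± 0.26, edgeR adjusted p = 0.0119 and 0.0115). In the same comparisons the 23 very long transcripts had median log2 fold changes of -1.14 and -1.17. The part of transcript length in these falls was not tested. The granule proteoglycan gene srgn and the granule fusion genes stxbp2 and unc13d did not pass in either group.

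Most T cell genes on the list were low in il2rga and double mutants, where prf1.1, prf1.9 and gzma were low. The means of prf1.6 were not low there. In prkdc mutants the T cell genes also summed lower than in wild type. There gzma was lower without overlap (19 counts against 134), and prf1.1 had a lower mean with overlap (29 against 58). The mean of prf1.9 was highest in prkdc mutants, with a range that overlapped wild type. By edgeR none of the members passed in that comparison. Of 23 listed T cell genes 17 were tested. They summed to 92.2 to 181 CPM in wild type and 39.8 to 78.7 in prkdc mutants. The sums were 25.1 to 56.3 in il2rga mutants and 15.3 to 37.9 in double mutants. Against wild type 12 of 17 fell in il2rga and 12 in double mutants, with medians of -4.04 and -3.80. Over all genes tested 3.59% and 7.51% were lower, with medians of 0.06 and 0.05. Not all genes of the list were low: the factor gata3, also made by cells other than T cells, had 8.65 to 13.5 CPM in wild type, 17.1 to 39.1 in prkdc mutants, 18.1 to 46.4 in il2rga mutants and 6.72 to 28.1 in double mutants, and so made up much of the sums in mutants. It passed in neither of these comparisons, nor did cd28 and cd247, with log2 fold changes of -0.22 and -0.25 in il2rga mutants. In prkdc mutants edgeR called 0, with 11 at an unadjusted p under 0.05, DESeq2 called 4 and limma 5, and the median was -1.89. The coreceptor gene cd8a, a marker of killer T cells, had 76 counts over wild type, 9 over prkdc mutants and 0 over both il2rga and double mutants. The 10 B cell genes summed to 69.7 to 107 CPM in prkdc mutants and 49.1 to 65.1 in double mutants. Their sums were 185 to 385 in wild type and 149 to 927 in il2rga mutants, an order that none of prf1.1, prf1.9 and gzma shares. Much of the sum in prkdc mutants was blnk and cd22, with means of 53.3 and 16.4 CPM against 44.9 and 6.31 in wild type. The other B cell genes had lower means there than in wild type. In an il2rga mutant ighm alone reached 591 CPM. The part of T cell number in the levels of the members was not tested. Pore proteins of the complement system, which the liver makes, went the other way. Of 6 tested 1 rose in il2rga mutants and 3 in double mutants against wild type, in libraries where liver genes were also high. Among all genes tested 2.22% and 6.8% were higher in these comparisons.

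For the 5 members with a mean of at least 1 CPM, the genes most like each in pattern were sought among tested genes. The measure was the root mean square difference of centred log2 CPM over the 12 libraries. Differences between genotypes were left in, so genes with alike genotype differences lie close. Closeness does not show that genes are expressed in the same cells. Genes without a symbol, with a clone name or with a repeated symbol were left out, and some of those may lie closer. The 5 nearest to prf1.9 were il2rga itself, adpgk2, zbtb32, abhd2 and b4galt5, at 0.44 to 0.59. Over the libraries prf1.9 had an SD of 1.91. As the mutated gene, il2rga was low in every animal with the il2rga mutation, the same split that prf1.9 showed. The 5 nearest to gzma were nitr2b, an immune-type receptor gene of fish, p2rx1, cd8a, the T cell factor tcf7 and ms4a17c.1, at 0.44 to 0.64 with an SD of 1.35 for gzma. For prf1.6 the nearest was ugt2a6 at 0.53 and the fifth cyp1a1 at 0.69, with an SD of 1.2. For prf1.5 they ran from mindy2 at 0.35 to cntn4 at 0.40, with an SD of 0.69, and for prf1.3 from lamp3 at 0.51 to s100z at 0.62, with an SD of 1.14. No member was among the 5 nearest of another.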

How the data were processed

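The authors deposited raw counts per Ensembl gene for 12 libraries. Per the labels' protocols, 100 ng of RNA per kidney underwent poly(A) selection and directional library construction with 15 PCR cycles, and 50 bp paired reads were sequenced. Per the submitters' processing notes, STAR, Picard and featureCounts were used on GRCz10. The sources used here do not give versions, annotation, strand setting or the treatment of duplicate and multi-mapping reads. Columns were matched to samples by the genotype and number in their names. A symbol was found for 26269 of 32105 identifiers, and list genes were used where a single identifier carried the symbol in any case of letters.

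edgeR 4.0.16 in R 4.3.3 (filterByExpr, TMM scaling, robust glmQLFit on all 12 libraries with 4 group means, glmQLFTest) tested, on 2 sides, the interaction and 6 group pairs, with Benjamini-Hochberg adjustment over 18370 genes at 0.05. The script was tested on simulated data. CPM used TMM-scaled library sizes, and log2 CPM and the ratios of members a prior count of 2. Fitted log2 fold changes used edgeR's default prior count, and the SE is the log2 fold change over the root of F. The common biological coefficient of variation was 0.418. Ratios of low counts have exact 95% binomial intervals. Alternatives were DESeq2 1.42.0, limma 3.58.1 voom with quality weights, other scalings and filters, only the groups compared, a replicate block, a liver covariate and left-out libraries.

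The members and lists were chosen with earlier results of these data known. Named genes were all members, the targeted genes, up to 4 called genes per list and comparison by smallest p or else the most abundant, and the 5 nearest genes by pattern; gzmk, nkl.3, faslg, rab27a, rab27b, lyst, cd8a and the uncalled list genes were added after their values were seen. Of 18 library pairs with the same replicate number, 6 correlated above 0.1 after group means were removed (median 0.066, other pairs -0.017). All 3 pairs of il2rga with double mutants did (0.132, 0.121 and 0.518), so the block is given beside that comparison. Libraries of unlike number also correlated, il2rga 2 with double 1 (0.418) and il2rga 1 with double 2 (0.212). The pairs of unlike number with a library 3 were negative (-0.434 to -0.243). The numbers need not pair the animals. Replicates differed far beyond sampling noise, with chi-square per degree of freedom of at least 20.6.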

Additional observations from a re-analysis of the deposited data

Results flagged for a closer look

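The gzma difference made by the prkdc mutation had the opposite sign with and without the il2rga mutation. It was -2.72 log2 units in prkdc mutants against wild type and 1.21 in double against il2rga mutants, a gap of 3.93 ± 0.74 in the interaction term (edgeR, unadjusted p = 0.000235, Benjamini-Hochberg adjusted p = 0.788). It was singled out because the gzma groups did not overlap in either comparison, with opposite directions. The interaction did not pass over all genes. With each library left out in turn the gap was 3.45 to 4.20. In counts, gzma had 134 over wild type, 19 over prkdc mutants, 4 over il2rga mutants and 13 over double mutants, so the second difference rests on 4 against 13 counts, with a ratio of 2.41 and a counting interval of 0.746 to 10.2.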

How the results depend on the processing

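The number of members called was 3 in il2rga and in double mutants against wild type, 3 in double and 2 in il2rga against prkdc mutants, and 0 in the other comparisons. DESeq2's Wald test called 1 in prkdc mutants against wild type, gzma, and 3 in il2rga against prkdc mutants, with prf1.1 added. Without a filter, with only the groups compared and with the replicate block the count in il2rga against prkdc mutants was 1, and with only the groups compared that in double against prkdc mutants was 1. With the liver covariate, and without the 4 libraries highest in liver genes, each of these 4 counts was 0, and without those libraries the number of pairs whose ratio differed with the il2rga genotype was 0 in place of 10. Over leave-one-out fits the count ran from 1 to 3 in il2rga mutants against wild type, 1 to 3 in double and 1 to 3 in il2rga against prkdc mutants, and the pairs from 7 to 11. Fewer samples lower what the smaller fits can call, and other causes were not tested.

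Signs turned for members that were not called. Under limma voom prf1.2 was 1.09 in prkdc and 1.52 in double mutants against wild type. In double mutants against wild type prf1.6 was -0.080 with the replicate block, -0.92 with the liver covariate and -2.44 without the 4 libraries, and prf1.3 was 0.66 and 0.52 under the last 2. In il2rga mutants against wild type prf1.6 was -0.42 with the liver covariate. Over leave-one-out fits, prf1.2 ran from -0.77 to 1.72 in prkdc and -0.74 to 1.75 in double mutants against wild type, prf1.3 from -0.21 to 1.05 and -1.15 to 0.059, and prf1.6 from -0.032 to 0.31 in il2rga and -0.41 to 0.48 in double mutants against wild type and from -0.57 to 0.34 between double and il2rga mutants. In none of these fits did the member concerned pass. A tally took 712 log2 fold changes, each of a single member, comparison and alternative setting. These values share libraries and are not independent. The tally covered only chosen members in each comparison. It left out others, such as prf1.2 in double against prkdc mutants (log2 fold change 0.035), and so does not describe all member values. Within the tally, 631 kept sign and side of the threshold, 57 lost a call, 4 gained one and 20 turned sign. Apart from that in il2rga against prkdc mutants, the replicate block moved no count of members called by over 1.5 times. Member counts were 0 to 71 a library, and prf1.2 and prf1.3 spread widely between animals of a group, so moderate changes of these were not detectable.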
